A study of Mus musculus with 15 samples.

Results

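Amino acid transporters of the solute carrier families SLC6, SLC7 and SLC38 were followed in the oocyte transcriptomes of mouse follicles grown in vivo or in culture. The members were taken by name: protein-coding genes of GENCODE vM21 whose symbol begins with Slc6a, Slc7a or Slc38a and a number. This gave 48 genes of the 55401 gene identifiers in the count files, 21 of Slc6, 16 of Slc7 and 11 of Slc38. One further symbol matched, Slc6a19os, but it is an antisense RNA and was left out. The name also takes in Slc7a6os, a neighbour of Slc7a6 that encodes a nuclear protein and not a transporter, and several Slc6 carriers of monoamines, GABA or creatine, so not every member moves an amino acid.

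Each library held the amplified poly(A) RNA of 6 oocytes, prepared by SMART-Seq2, which does not mark the strand. There were 15 libraries in 5 groups of 3. IVV oocytes came from follicles grown in vivo, IVG oocytes from follicles cultured to day 6 or day 10, and IVG-NT oocytes from follicles cultured for the same times with neurotrophin-4 (NT-4), a ligand of the receptor TrkB. The mice were of the Kunming strain, and the age given, 12 to 14 days, is that of the mice whose follicles were cultured. The IVV oocytes were taken by puncture of antral follicles, and no separate age is given for them. A difference in donor age between IVV and culture therefore cannot be told apart from the effect of culture. The paper states that the 3 samples of a group came from 3 replicated experiments, and that the culture groups were run in parallel. Neither it nor the labels tie the replicate numbers to these experiments or to separate mice. P values therefore measure the spread between these libraries, which may be technical in part.

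Oocytes take up amino acids through carriers of their own and through gap junctions with the granulosa cells around them. Carriers of SLC6 and the system A carriers of SLC38 use the sodium gradient to concentrate their substrates. Most SLC7 proteins are light chains that reach the membrane only when joined to the heavy chain Slc3a2 (CD98) or Slc3a1, and the others carry cationic amino acids alone. In the mouse oocyte the glycine carrier GLYT1, encoded by Slc6a9, is best known for glycine accumulation and volume control after the germinal vesicle stage.

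Depth and library type set the limits of what could be read for these genes. Totals ran from 5954262 to 55593251 counts, and IVG-NT day 6 replicates 1 and 2 were the lowest at 5954262 and 7125348. A ribosomal RNA gene, CT010467.1, took 12.5 to 37.9% of counts in 9 libraries (IVV replicate 3 and replicates 1 and 2 of each cultured group) and 0.187 to 0.714% in the other 6. These are called rRNA-rich and rRNA-poor here, and in the cultured groups they follow the replicate number. The 17 oocyte markers checked summed to 13944 to 25560 normalized CPM (counts scaled to library size) per library, and the 18 granulosa cell markers to 50.7 to 355, so the libraries carried oocyte RNA with a small granulosa cell part. In pools, fewer cells of a type and less RNA per cell cannot be told apart.

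Levels are given as normalized FPKM, that is, counts scaled by TMM library size and per kilobase of exon, so that genes can be compared. Of the 48 members, 45 had a count in at least 1 library and 13 had one in all 15. The renal carriers Slc6a18, Slc7a12 and Slc7a13 had no count in any library. Mean levels over the 15 libraries were at or above 10 for 5 members, between 1 and 10 for 18 and below 1 for 22. The range of detection differed between groups, with 38 to 39 members counted in each IVV library, 28 to 35 in IVG day 10, 27 to 33 in IVG-NT day 10, 24 to 33 in IVG day 6 and 17 to 33 in IVG-NT day 6. The library with 17 was one of the shallow ones.

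**Figure D1:**
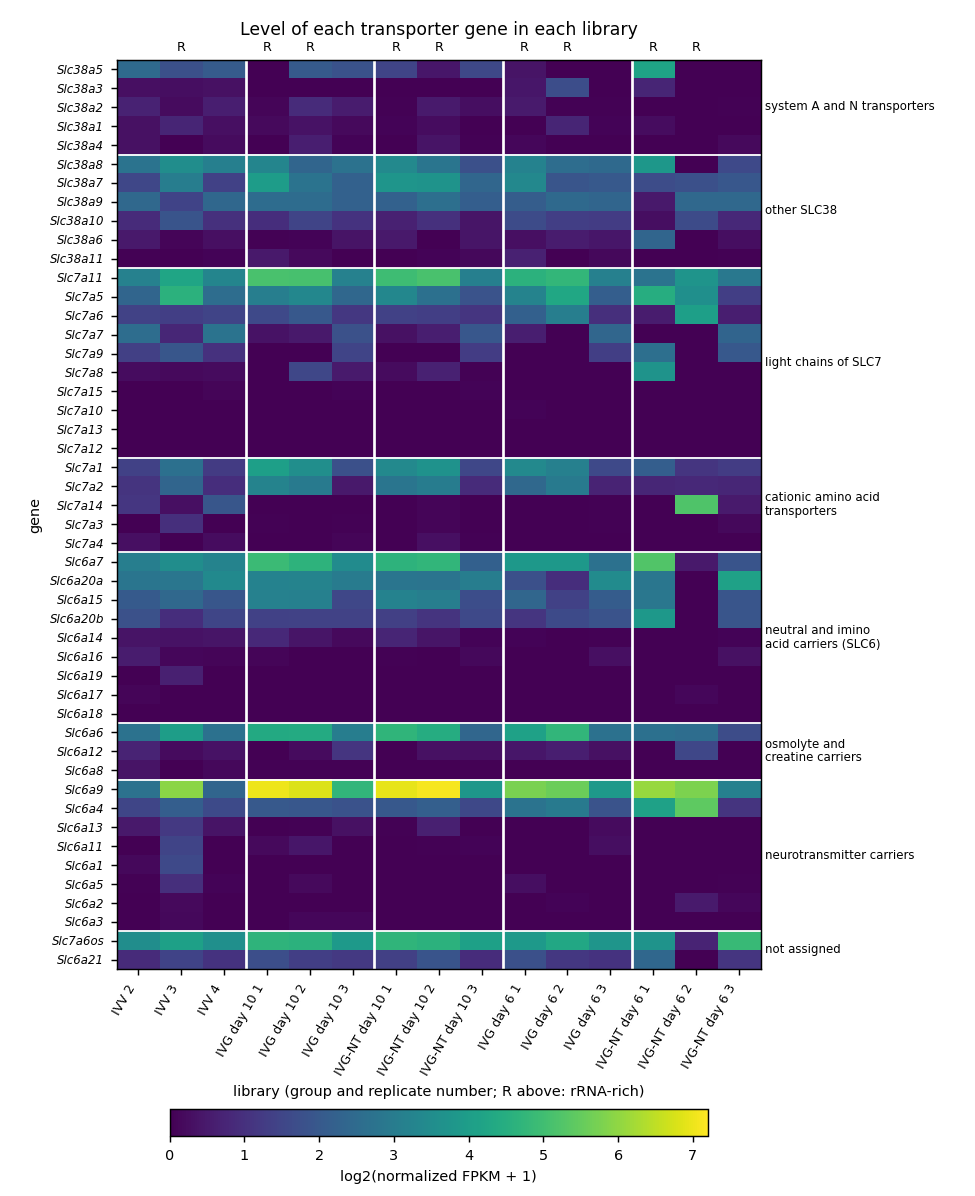
Level of the 48 genes (rows, grouped by role) in the 15 libraries (columns, by group and replicate number; R marks an rRNA-rich library), as log2(normalized FPKM + 1). Slc6a9 is the brightest row, reaching 137 in IVG-NT day 10 replicate 2, and the rows of Slc6a18, Slc7a12 and Slc7a13 are empty.

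Slc6a9 had the highest mean level of all members, 56.8 over the 15 libraries. It lies on chromosome 4 (GRCm38/mm10, 117834506 to 117875198, plus strand). In IVV its level was 5.57, 61.0 and 4.14 in replicates 2, 3 and 4. In IVG day 10 it was 129, 113 and 25.9, and in IVG-NT day 10 it was 122, 137 and 13.1 in replicates 1, 2 and 3. In IVG day 6 it was 52.7, 46.5 and 13.8, and in IVG-NT day 6 it was 67.7, 54.0 and 7.73. The rRNA-rich library was the high one in IVV and the rRNA-poor library the low one in each cultured group, and among the rRNA-rich libraries those of day 10 (113 to 137) lay above those of day 6 (46.5 to 67.7) and of IVV. Among the rRNA-poor libraries IVG-NT day 10 (13.1) was just below IVG day 6 (13.8), so the days overlapped there, although each arm was higher at day 10. The gene made up 4.39 to 43.4% of the summed level of the 48 members. Its counts carry an uncertainty of their own, because 38.6% of its exon bases overlap genes on the other strand, mostly Ccdc24, and unstranded reads cannot separate them. Ccdc24 itself was counted at 0 to 117 normalized CPM per library, against 21.3 to 704 for Slc6a9. Ccdc24 was the higher of the 2 in the rRNA-poor IVV libraries, with 50.9 in replicate 2 and 86.4 in replicate 4. Slc6a9 had its 21.3 in that replicate 4. In IVG-NT day 10 replicate 3 Ccdc24 was also higher, at 117 against 67.3, and it was below Slc6a9 in the other libraries. The part of Ccdc24 reads in the Slc6a9 levels was not tested.

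Second came Slc7a11 (xCT; chromosome 3, 49892526 to 50443614, minus strand), the light chain of the cystine and glutamate exchanger that supplies cysteine for glutathione. Its mean was 17.6. The values were 8.05, 17.6 and 8.72 in IVV, 33.9, 33.3 and 7.99 in IVG day 10, and 30.2, 34.1 and 7.66 in IVG-NT day 10. They were 23.5, 26.3 and 7.86 in IVG day 6 and 5.72, 12.2 and 6.31 in IVG-NT day 6. The 6 rRNA-poor libraries stayed between 6.31 and 8.72, while the rRNA-rich ones ran from 5.72 to 34.1.

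Slc7a11 is a known target of ATF4, the transcription factor of the amino acid response, which binds C/EBP-ATF response elements. Sequences upstream of the RefSeq starts (GRCm38.p6) were found for 33 of the 48 members, in 53 windows of 250 bases, and searched for TGATGNAA on both strands. It was found in 4 windows of 3 members (Slc6a21, Slc7a11 and Slc7a7), against 3.45% of all 32851 windows. The windows of Slc7a11 and of one Slc7a7 start are shown without their last 10 bases, from base -250 to base -11 before the start, with matches in capitals. They are chr3:50443624-50443863 and chr14:54417955-54418194, both on the minus strand and written 5′ to 3′.
Slc7a11: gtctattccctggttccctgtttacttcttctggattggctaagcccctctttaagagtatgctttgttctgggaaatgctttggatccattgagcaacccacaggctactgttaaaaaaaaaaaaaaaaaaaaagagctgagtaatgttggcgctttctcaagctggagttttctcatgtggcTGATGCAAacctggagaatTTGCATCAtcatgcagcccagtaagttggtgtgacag
Slc7a7: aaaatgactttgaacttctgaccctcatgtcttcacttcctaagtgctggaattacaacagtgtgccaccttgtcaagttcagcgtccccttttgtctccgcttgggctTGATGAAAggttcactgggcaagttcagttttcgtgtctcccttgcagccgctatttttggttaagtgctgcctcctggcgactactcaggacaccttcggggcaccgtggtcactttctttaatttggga
In Slc7a11 the letters occurred at -66 and again at -47 on the opposite strand, and in this Slc7a7 window once, at -141. A match of letters shows no binding. The E-box CACGTG occurred in 5 of the 53 member windows, of 5 members, against 6.02% of all windows. TAATTG, the core bound by the oocyte factor NOBOX, occurred in 4 of the 53, of 4 members including Slc6a9, against 7.17% of all windows.

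Among the other carriers with high levels, Slc6a6, the taurine carrier (mean 12.2), ran from 2.17 to 25.6 over the 15 libraries. Slc7a5 (LAT1), the light chain for large neutral amino acids, had a mean of 8.996 and ran from 1.52 to 23.5, highest in IVV replicate 3. Slc7a1 (CAT1), the carrier of arginine and lysine, had a mean of 5.72 and ran from 1.18 to 15.7. Slc6a7, the proline carrier known from brain, had a mean of 14.3 and a range of 0.404 to 36.7, both ends in the 2 shallow IVG-NT day 6 libraries. The non-transporter Slc7a6os ranked next after Slc7a11 with a mean of 16.65.

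The rest of the 12 members with the highest means were Slc6a20a, an imino acid carrier (6.67), the serotonin carrier Slc6a4 (6.54), Slc38a8 (6.19), the lysosomal glutamine carrier Slc38a7 (5.76) and Slc6a15, a carrier of branched-chain amino acids and proline (4.25). Without IVG-NT day 6 replicate 2, a shallow one, the mean of Slc6a4 was 4.05. Of the exon bases of Slc6a20a, 14.9% overlap genes on the other strand, mostly Gm17120. In the rRNA-poor libraries Gm17120 was counted at 51.4 to 103 normalized CPM and Slc6a20a at 24.2 to 67.3, and the neighbour was the higher in 5 of these 6. Slc6a20b, its close copy next to it on chromosome 9, had 21.1% and a mean of 2.46, and reads may be shared between the copies. Slc38a9, the lysosomal arginine sensor upstream of mTORC1, stood at 3.45 to 4.37 in the rRNA-poor libraries and at 0.411 to 5.17 in the rRNA-rich ones.

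System A and N carriers of SLC38 were low. Slc38a1 had a mean of 0.191 and Slc38a2 (SNAT2), which many cell types raise when amino acids are short, a mean of 0.256. Slc38a3, a glutamine carrier described in the cumulus cells of the ovary, had a mean of 0.263. Slc38a5 was the highest of these by mean at 2.49, yet it had no count in 5 libraries, and without IVG-NT day 6 replicate 1, a shallow one, its mean was 1.45. The creatine carrier Slc6a8 reached only 0.310 in its highest library, an IVV one, and the light chain Slc7a6 had a mean of 2.94 with 15.7 in IVG-NT day 6 replicate 2 alone above 7.45.

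The heavy chain Slc3a2 was present beside its light chains at 4.34 to 114 normalized FPKM, lowest in the 2 shallow IVG-NT day 6 libraries (11.01 and 4.34) and highest in the remaining library of that group. Slc3a1 reached 27.4 in one of the shallow libraries and 8.03 in IVG day 6 replicate 2, and stood at or below 0.919 in the other 13.

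**Figure D2:**
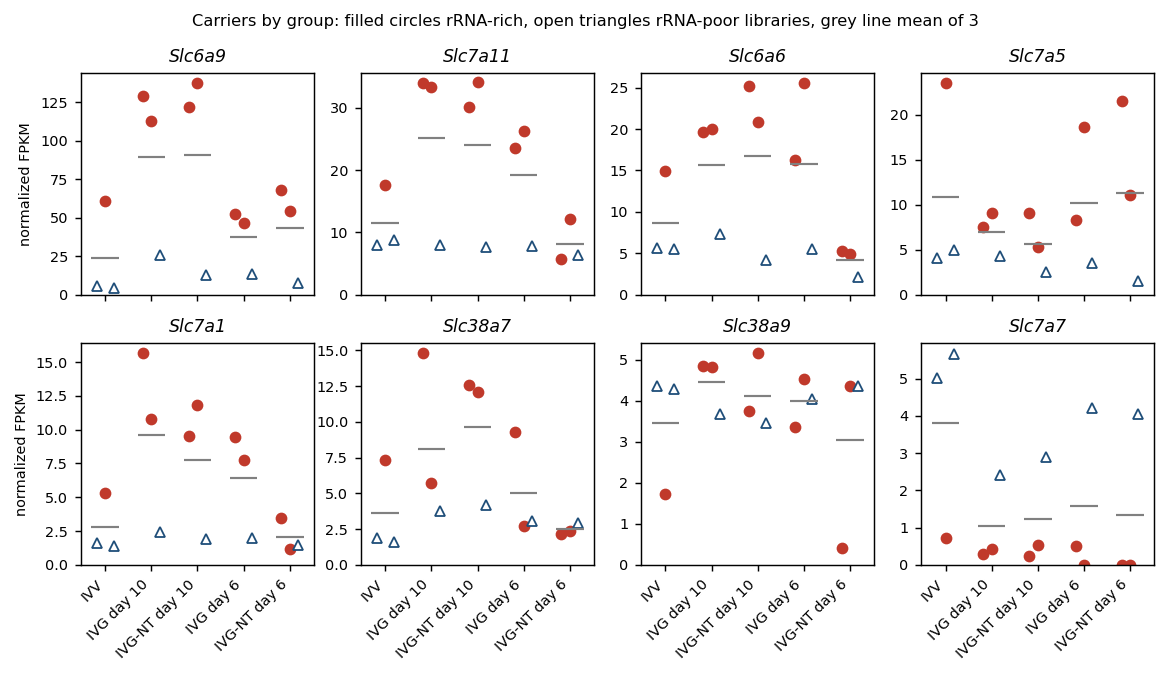
Normalized FPKM (linear axes from 0, one panel per gene) by group; each point is a library, circles rRNA-rich and triangles rRNA-poor, and the grey line is the mean of 3. Among rRNA-rich libraries Slc6a9 is at 113 to 137 at day 10 and 46.5 to 67.7 at day 6, while Slc7a7 is at 2.42 or more in rRNA-poor libraries and at most 0.713 in rRNA-rich ones.

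Library type alone separated some members. The 9 rRNA-rich and 6 rRNA-poor libraries did not overlap for 4 of the 38 members that could be tested, against 13.2% of the 21009 genes tested. Slc6a9, Slc7a5 and Slc6a4 were higher in the rRNA-rich libraries. Slc7a7, the light chain y+LAT1 for cationic and neutral amino acids, was lower, with 0 to 0.713 against 2.42 to 5.67. The calls with library type as a covariate are therefore given beside each comparison.

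DEG here means what the study's methods call differentially expressed, a change of more than 1 on the log2 scale at P under 0.05 before adjustment, in edgeR's quasi-likelihood test. The filter on low counts kept 38 members. No member, and none of the 21009 genes, had an adjusted p under 0.05 by this test in any comparison. The unadjusted P was under 0.05 for 579 genes in IVG day 10 against IVV, 691 in IVG-NT day 10 against IVV, 261 between the arms at day 10, 2430 between them at day 6, 609 between days in IVG, 2661 in IVG-NT and 2190 over both arms, and for 1339 in the difference of the NT-4 effect between days. DESeq2's Wald test gave 51 to 715 genes with an adjusted p under 0.05, and members with one in 7 of these 8 comparisons, as given in the section on processing choices.

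Scaling shifted whole comparisons. With DESeq2's size factors in place of TMM the median log2 fold change of all genes moved from -0.27 to 0.0033 for NT-4 at day 6 and from 0.40 to 0.04 between days in IVG-NT, and the members' medians moved with it, from -0.02 to 0.26 and from 0.13 to -0.33. The members' median in IVG day 10 against IVV turned from 0.15 to -0.05. The sign of a members' median is therefore not a direction of the family.

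The first question was how oocytes of cultured follicles compared with oocytes grown in vivo. In IVG day 10 against IVV, 2 of 38 members were DEGs, both lower, where 2.76% of all genes were DEGs. The median log2 fold change of the members was 0.15, and of all genes -0.20. Slc7a14, an orphan lysosomal member of the cationic family, had 569, 38 and 1344 counts in IVV and no count in any IVG day 10 library. It was at least 630.1-fold lower, with the IVG day 10 libraries set together at 3 counts (adjusted p = 1). Slc38a3 had 58, 17 and 63 counts in IVV and none in IVG day 10, at least 53.5-fold lower (adjusted p = 1). Slc38a3 was no DEG on leaving out any 1 IVG day 10 library, while Slc7a14 kept its call. Both sets of libraries were apart, as they were for the GABA carrier Slc6a13. That makes 3 of 38 members without overlap, against 11.9% of all genes.

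In IVG-NT day 10 against IVV, 3 of 38 members were DEGs, all lower, against 3.29% of all genes. The members' median log2 fold change was -0.23, and that of all genes -0.19. Slc38a3 again had no count, so that it was at least 41.6-fold lower (adjusted p = 1). Slc7a14 had 19 counts in 1 of the 3 libraries, and its mean was 0.214 against 13.8 normalized CPM (log2 fold change -6.02 ± 2.58 SE, adjusted p = 1). The glycine carrier of inhibitory neurons, Slc6a5, had 9, 116 and 19 counts in IVV and none here, at least 89.8-fold lower (adjusted p = 1). The 116 counts are those of replicate 3, the rRNA-rich one, at 0.976 normalized FPKM, and no rRNA-poor library was above 0.0536. The call of Slc6a5 was lost without that replicate, and without any 1 IVG-NT day 10 library. Slc38a3 was also no DEG on leaving out any 1 IVG-NT day 10 library. Slc7a14 was none without IVV replicate 4 or IVG-NT day 10 replicate 1 or 3. Of the 38 members, 5 did not overlap, against 11.6% of all genes. Both comparisons share the IVV libraries, so they are not independent. Markers of other cells moved as well. Theca and stroma markers summed to 23.2 to 25.8 normalized CPM in IVV and 4.602 to 5.61 in IVG-NT day 10, without overlap, with 2 of 10 tested lower (Col1a2 and Acta2), and to 0.562 to 39.4 in IVG day 10. Macrophage markers summed to 16.9 to 66.2 in IVV, 5.24 to 35.05 in IVG-NT day 10 and 7.05 to 51.5 in IVG day 10. Of the granulosa cell markers Has2 was higher in IVG day 10. Their part in the members' differences was not tested.

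When library type was a covariate, 3 of 38 members were DEGs in IVG day 10 against IVV (3.83% of all genes) and 4 of 38 in IVG-NT day 10 against IVV (4.31% of all genes). Slc6a9 changed its call in both. Its log2 fold changes of 1.92 ± 1.11 SE (adjusted p = 1) in IVG day 10 and 1.94 ± 1.11 SE (adjusted p = 1) in IVG-NT day 10 against IVV did not pass. With the covariate they were 1.72 and 1.45, and both passed the criterion, each with an adjusted p of 1. In the rRNA-rich libraries the levels were 113 to 137 at day 10 against 61.0 in the single IVV library, and in the rRNA-poor ones 25.9 and 13.1 against 5.57 and 4.14. Slc7a9, the light chain of the cystine carrier of kidney, also became a DEG in IVG-NT day 10 (log2 fold change -6.66, adjusted p = 1), and Slc7a14 was no longer one there (adjusted p = 1).

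**Figure D3:**
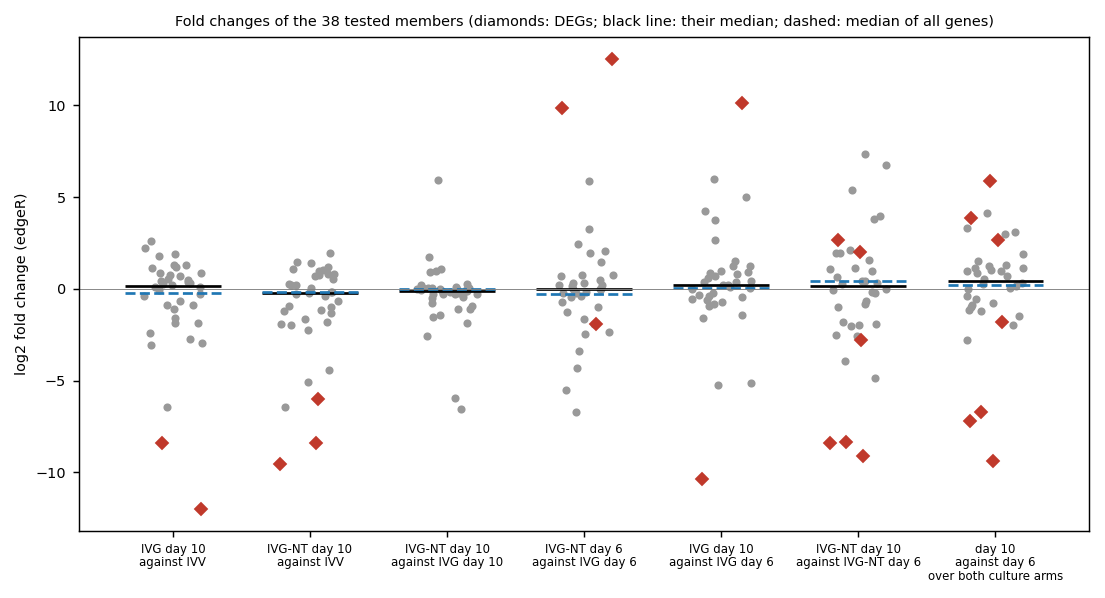
Log2 fold change of each of the 38 tested members (points; red diamonds are DEGs) in 7 comparisons, with the members' median (black line) and the median of all 21009 genes (dashed blue line). The medians lie close to 0 in each comparison, from -0.23 to 0.43 for members and -0.27 to 0.40 for all genes; values beyond 5 come from genes with no or few counts in a group, where the fitted fold depends on the prior count.

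The effect of NT-4 was asked at each day. At day 10, none of the 38 members was a DEG between IVG-NT and IVG, where 1.24% of all genes were, and none had an unadjusted P under 0.05. The smallest P belonged to Slc6a5 (0.0609), the dopamine carrier Slc6a3 (0.0648) and Slc7a14 (0.0673), each with counts in at most 2 of the 6 libraries. No member separated the groups, against 3.59% of all genes. Slc6a9 differed by 0.02 ± 1.08 SE on the log2 scale, Slc7a11 by -0.07 ± 0.74 SE, Slc6a6 by 0.10 ± 0.80 SE and Slc7a1 by -0.31 ± 0.91 SE. No difference was detectable at this spread, which does not show that the levels were equal. Same-numbered libraries were taken as paired in this comparison. With a replicate block, fitted over all 15 libraries and not these groups alone, the count of DEGs was still 0 (0.605% of all genes). The covariate of library type gave 1 DEG among the 38 members (2.03% of all genes), Slc6a3, with 0, 13 and 19 counts in IVG and none in IVG-NT. Slc6a3 had counts in 3 of the 15 libraries and passed the filter on low counts partly through IVG day 10. This call is therefore not independent of the filter.

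At day 6, 3 of 38 members were DEGs between IVG-NT and IVG, against 11.6% of all genes. The median log2 fold change was -0.02 for members and -0.27 for all genes. Slc6a6 fell, with 5.28, 4.96 and 2.17 normalized FPKM in IVG-NT against 16.3, 25.6 and 5.49 in IVG (log2 fold change -1.93 ± 0.83 SE, adjusted p = 0.397). All IVG-NT libraries lay below all IVG libraries. Slc6a6 was the 1 member of 38 that separated the groups, against 8.45% of all genes. With library type as a covariate its change was -1.79 (adjusted p = 0.260). With DESeq2's size factors in place of TMM it was -1.40 (adjusted p = 0.475), short of the criterion, as it also was without IVG day 6 replicate 1 (-1.92), IVG day 6 replicate 2 (-1.38) or IVG-NT day 6 replicate 3 (-1.63). Granulosa cell markers moved in the same comparison: 3 of 15 tested were lower with NT-4, Fst, Hsd17b1 and Fshr. Their part in the change of Slc6a6 was not tested.

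The other DEGs of day 6, Slc7a8 and Slc7a14, had counts in few libraries. Slc7a8 (LAT2), a light chain for neutral amino acids, had 333 counts in replicate 1 of IVG-NT and none in the other 5 libraries (adjusted p = 0.381), and without that library it had no count in either group. Slc7a14 had 0, 2041 and 263 counts in IVG-NT and 0, 0 and 23 in IVG (log2 fold change 9.85 ± 3.02 SE, adjusted p = 0.381). The libraries with 333 and 2041 counts are the 2 shallow ones. In the fit with library type as a covariate 6 of 38 members were DEGs, and 15.8% of all genes: to these 3 were added Slc7a11 (-1.02, adjusted p = 0.278), Slc7a1 (-1.31, adjusted p = 0.291) and Slc7a9 (7.40, adjusted p = 0.289). Slc7a9 stood at 13.9, 0 and 7.96 normalized CPM in IVG-NT and 0, 0 and 4.02 in IVG, and the 13.9 is from a shallow library. In replicate 3, not shallow in either group, Slc7a11 was at 87.8 against 109 and Slc7a1 at 16.6 against 23.2. Without the 2 shallow libraries 1 IVG-NT library was left, which was assumed to vary like the other groups. In that fit 4 members were DEGs (2.7% of all genes), Slc7a14 higher and Slc6a6, Slc6a4 and Slc7a6 lower, while with DESeq2's size factors over all libraries Slc6a4 was a DEG in the other direction.

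Over both days, with the NT-4 labels permuted within day and library type (144 assignments, smallest two-sided p 0.0139), 2 of 38 members had p under 0.05, against 5.92% of all genes. Both were lower with NT-4, Slc7a1 by 0.91 (p = 0.0278) and Slc7a11 by 0.61 (p = 0.0417) on the log2(normalized CPM + 1) scale in this exact permutation test, with adjusted p of 0.704 over all genes. Slc7a1 stood at 3.45, 1.18 and 1.44 in IVG-NT day 6 against 9.46, 7.74 and 2.01 in IVG day 6. At day 10 it was 9.54, 11.8 and 1.88 against 15.7, 10.8 and 2.41, where the groups overlap. The permutation test included the 2 shallow libraries, and their part in these differences was not tested.

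The difference between days of the NT-4 effect was tested as an interaction. One member, Slc7a8, passed the criterion (log2 difference -14.06 ± 4.39 SE, adjusted p = 0.664), where 6.37% of all genes did, and it rests on the same single library with 333 counts, so that the fitted size depends on the prior count. Slc6a6 had an interaction of 2.03 ± 1.15 SE (adjusted p = 0.859), and 1.70 (adjusted p = 0.522) with library type as a covariate, where 8.96% of all genes and 2 of 38 members, Slc6a6 and Slc7a8, passed. In the rRNA-rich libraries alone Slc6a6 also passed, and in the fit over all libraries without the covariate it did not.

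Days of culture were compared in each arm and over both. In IVG, 2 of 38 members were DEGs between day 10 and day 6, against 2.9% of all genes. Slc38a3 was lower, with no count at day 10 and 50, 230 and 0 counts at day 6 (at least 207-fold by the means, adjusted p = 1). Slc7a8 was higher, with 0, 415 and 120 counts at day 10 and none at day 6 (at least 147-fold by the means, adjusted p = 1). Slc6a14 was the 1 member of 38 without overlap of the groups, against 7.42% of all genes. Same-numbered libraries were taken as paired in this contrast. With the replicate block, fitted over all 15 libraries and not these groups alone, 4 of 38 members were DEGs (1.71% of all genes). The added ones were Slc38a5 (9.16) and Slc7a14 (-7.21) on the log2 scale. Slc38a5 had 0 to 321 counts at day 10 and at most 18 at day 6. Slc7a14 had no count at day 10 and 23 counts in 1 day 6 library, at least 5.13-fold lower by the means. Its fitted fold depends on the prior count. Adding library type as a covariate gave 5 of 38 (4.86% of all genes), with Slc6a9 (1.12), Slc6a14 (3.69) and Slc6a3 (6.17) added. Slc6a3 had at most 19 counts at day 10 and none at day 6, at least 8.05-fold by the means. It passed the filter on low counts partly through day 10, so its call is not independent of the filter.

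In IVG-NT, 6 of 38 members were DEGs between day 10 and day 6, against 12.7% of all genes, and 3 of 38 did not overlap, against 11% of all genes. Slc6a6 rose to 25.2, 20.9 and 4.18 normalized FPKM from 5.28, 4.96 and 2.17 (log2 fold change 2.02 ± 0.83 SE, adjusted p = 0.357). Slc7a2, a carrier of cationic amino acids, rose to 5.94, 7.06 and 0.847 from 0.712, 0.756 and 0.695 (2.67 ± 1.18 SE, adjusted p = 0.375), with no overlap of the groups. With DESeq2's size factors neither passed, at 1.41 for Slc6a6 (adjusted p = 0.456) and 2.09 for Slc7a2 (adjusted p = 0.442). Without IVG-NT day 10 replicate 1, IVG-NT day 10 replicate 2 or IVG-NT day 6 replicate 3 Slc6a6 was also no DEG (1.56 to 1.79), and Slc7a2 kept its call on leaving out IVG-NT day 10 replicate 3 but no other library. Slc6a4, Slc38a3, Slc7a14 and the noradrenaline carrier Slc6a2 were lower. Slc6a2 had at most 39 counts, in 2 of the 3 day 6 libraries, and none at day 10. It passed the filter on low counts partly through day 6, so its call is not independent of the filter. Slc38a3 had 20 counts in 1 day 6 library and none at day 10. Slc6a4 fell to 2.93, 3.53 and 1.93 from 16.4, 41.3 and 1.12 (-2.81 ± 1.02 SE, adjusted p = 0.357). Both high values of Slc6a4 are from the shallow libraries, and without them its log2 fold change was 1.21 (adjusted p = 1). Under the covariate of library type 12 of 38 members were DEGs, against 16.9% of all genes. Added were Slc7a11 (1.28), Slc7a1 (1.51), Slc38a2, Slc6a13 and Slc7a4, higher at day 10, and Slc7a9, lower. Slc7a9 was at 0, 0 and 3.86 normalized CPM at day 10 and 13.9, 0 and 7.96 at day 6, the 13.9 from a shallow library.

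**Figure D4:**
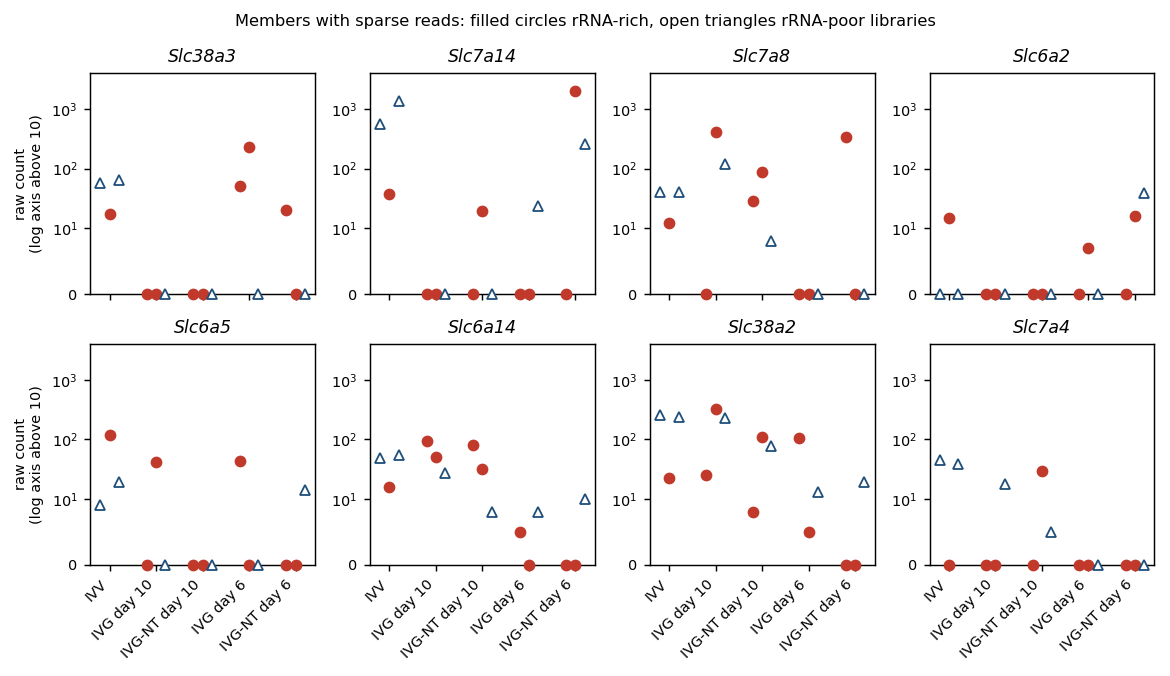
Raw counts (axis linear to 10, logarithmic above) of 8 members with few reads, by group; each point is a library, circles rRNA-rich and triangles rRNA-poor. Slc38a3 has no count in the 6 day 10 libraries, and in IVG-NT day 6 the counts of Slc7a8 come from 1 library (333) and those of Slc7a14 from 2 (2041 and 263).

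Over both arms, 7 of 38 members were DEGs between day 10 and day 6, against 10.4% of all genes. The median log2 fold change was 0.43 for members and 0.21 for all genes. Slc38a3, Slc7a14, Slc6a2 and Slc6a4 were lower and Slc6a14, Slc7a4 and Slc38a2 higher. Slc6a2 had at most 39 counts, in 3 of the 6 day 6 libraries, and none at day 10. Slc7a4 had at most 29 counts, in 3 of the 6 day 10 libraries, and none at day 6. Both passed the filter on low counts partly through the day in which they were counted, so these calls are not independent of the filter. Slc38a3 had 20 to 230 counts in 3 of the 6 day 6 libraries and none in the 6 of day 10 (at least 233-fold by the means, adjusted p = 0.337). Slc38a2 had 8 to 327 counts at day 10 and 0 to 105 at day 6 (2.67 ± 1.24 SE, adjusted p = 0.468), and it was no DEG with DESeq2's size factors (2.504, adjusted p = 0.492). Slc6a4 (-1.82 ± 0.69 SE, adjusted p = 0.369) turned to 0.20 without the 2 shallow libraries. With the replicate block, which also joined IVG-NT libraries taken as not paired between days, 6 of 38 members were DEGs (6.25% of all genes). Slc6a4 (-1.59, adjusted p = 0.795) and Slc38a2 (2.06, adjusted p = 0.850) were lost and Slc6a13 (5.44, adjusted p = 0.793) was gained. With library type as a covariate 9 of 38 were DEGs (13.6% of all genes), with Slc6a9 (1.06) and Slc7a1 (1.02) added.

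Slc6a14 (ATB0,+), a broad carrier of neutral and cationic amino acids (chromosome X, 21714896 to 21742355, plus strand), was the 1 member of 38 whose day 10 and day 6 libraries did not overlap, against 0.771% of all genes. It had 94, 50 and 27 counts in IVG day 10 and 80, 32 and 8 in IVG-NT day 10. At day 6 it had 5, 0 and 8 counts in IVG and 0, 0 and 10 in IVG-NT. The means were 1.31 and 0.0768 normalized CPM (log2 fold change 3.87 ± 1.33 SE, adjusted p = 0.337). Without the 2 shallow libraries it was 3.24 (adjusted p = 0.941), and without the filter on low counts 3.84 (adjusted p = 0.792), and neither was a DEG. The level was low throughout, at most 0.769 normalized FPKM, and the IVV libraries stood at 0.282 to 0.326.

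The exact permutation test over the 6 libraries of day 10 and 6 of day 6 gave a two-sided p of 0.00216 for Slc6a14, the smallest it can give, and 0.0346 for Slc38a7. These were 2 of 38 members with p under 0.05, against 7.88% of all genes. With the day labels permuted only within library type (420 assignments, smallest p 0.00476), 6 of 38 members had p under 0.05, against 13.7% of all genes. Slc6a14 (p = 0.00476), Slc6a9 (p = 0.00952), Slc7a11 (p = 0.00952), Slc7a1 (p = 0.0143) and Slc38a7 (p = 0.0286) were higher at day 10, and Slc6a4 (p = 0.0476) was lower, in this exact permutation test. No member had an adjusted p under 0.05 over all genes in it, the smallest being 0.179.

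The ratios between same-numbered libraries of these genes are a description, since the genes were picked on the same 12 libraries and the numbers were not taken as pairing in IVG-NT. For Slc6a9 the ratios of day 10 to day 6 were 2.45, 2.43 and 1.89 in IVG and 1.80, 2.54 and 1.69 in IVG-NT. The ratios thus ran from 1.69 to 2.54 while the levels ran from 7.73 to 137. Slc7a11 had ratios of 1.44, 1.27 and 1.02 in IVG and 5.27, 2.79 and 1.21 in IVG-NT. Slc7a1 had 1.66, 1.39 and 1.197 in IVG and 2.77, 10.0 and 1.31 in IVG-NT, and Slc38a7 had 1.59, 2.11 and 1.23 in IVG and 5.78, 5.14 and 1.44 in IVG-NT. With library type as a covariate, the log2 fold change of Slc6a9 over both arms was 1.06 (adjusted p = 0.218), a DEG, and without it 1.16 ± 0.77 SE (adjusted p = 0.668).

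**Figure D5:**
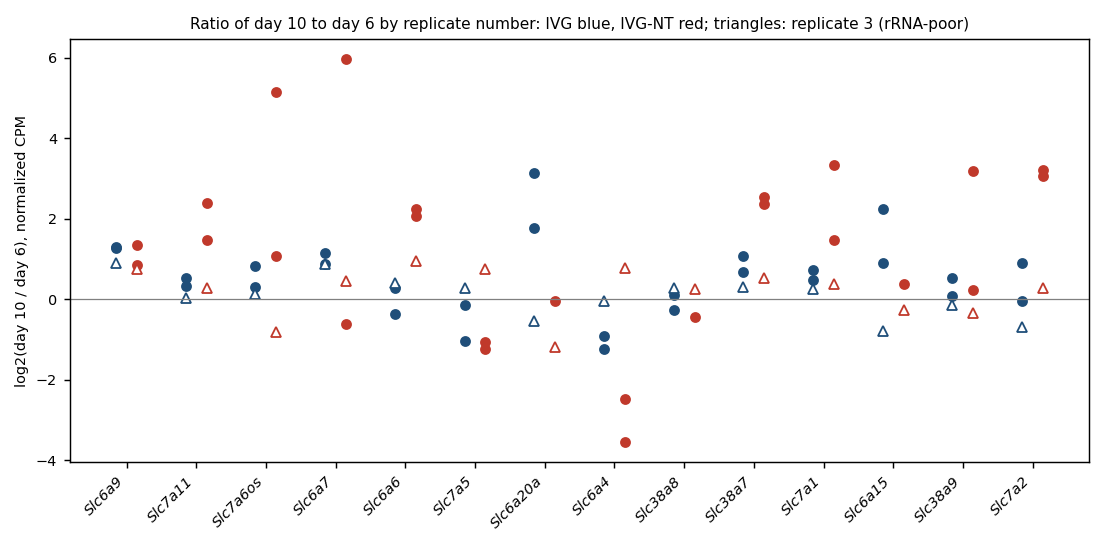
Log2 ratio of day 10 to day 6 (normalized CPM) for the 14 members with the highest means, by replicate number; blue is IVG, red IVG-NT, and triangles are replicate 3. The ratios of Slc6a9, Slc7a11, Slc38a7 and Slc7a1, genes picked on these libraries, lie above 0; pairs with no count at day 6 are left out.

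Granulosa cell markers moved between the same days. In the test over both arms 6 of the 15 tested markers were DEGs and higher at day 10, where 10.4% of all genes were DEGs. Among the 6 were the inhibin subunits Inhba (6.87 on the log2 scale) and Inhbb (6.48) and the receptor Fshr (3.94), while 1 other marker, Wt1, was lower. Their list sum was 105 to 355 normalized CPM in IVG day 10, 130 to 264 in IVG-NT day 10, 55.6 to 158 in IVG day 6 and 50.7 to 202 in IVG-NT day 6. Amh and Tnfaip6 had no count in any day 10 library. Of the theca and stroma markers 2 of 10 tested, Cyp17a1 and Col3a1, and of the macrophage markers 2 of 6, Ptprc and C1qc, were higher at day 10, while the sums of both lists overlapped between the days. At day 10 macrophage markers summed to 7.05, 8.80 and 51.5 normalized CPM for IVG, and to 5.24, 9.71 and 35.05 for IVG-NT. At day 6 they summed to 20.3, 33.7 and 64.6 for IVG, and to 59.6, 0 and 35.3 for IVG-NT. Theca and stroma markers summed to 0.562 to 39.4 at day 10 and 1.51 to 65.6 at day 6. The part of RNA from these cells in the members' differences was not tested. The oocyte marker list held 1 DEG between the days, Zp2, which was lower at day 10 (-1.03).

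Partners of the carriers were counted as lists. Of the 22 tested heavy chains and other amino acid carriers, 2 were DEGs between days in IVG, against 2.9% of all genes. These were Slc1a1 and Slc1a3, both glutamate carriers, higher at day 10. In IVG-NT 3 were DEGs between days (Slc36a4, Slc1a7 and Slc1a2, lower), against 12.7% of all genes. With NT-4 at day 6, 5 were DEGs and higher, where 11.6% of all genes were DEGs in either direction. In that last group Slc1a1 and Slc36a4 had their highest levels, 16.0 and 10.97 normalized FPKM, in 1 each of the 2 shallow libraries. At day 10, Slc1a3 was lower with NT-4, with 44, 22 and 15 counts in IVG and none in IVG-NT (adjusted p = 1).

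Of the 18 tested genes of the amino acid response, 4 were DEGs between days over both arms, against 10.4% of all genes. Aars, an aminoacyl-tRNA synthetase, was higher at day 10 (1.55), and Trib3 (-4.80), Sesn2 (-2.18) and the serine synthesis enzyme Psat1 (-3.50) were lower on the log2 scale. Sesn2 was high in the shallow libraries, 55.7 and 40.5 normalized FPKM, and 0.310 to 4.07 in the other 13. Atf4 itself ranged from 2.80 to 59.0 normalized FPKM. Of the 24 tested genes of lysosomal amino acid sensing by mTORC1, 2 were DEGs with NT-4 at day 6, against 11.6% of all genes. Of these, 1 was higher and 1 lower. Mtor was the lower one, with 3.72, 0.103 and 1.88 against 15.8, 10.3 and 4.08 normalized FPKM (-2.41 ± 1.06 SE, adjusted p = 0.407). Its 3.72 and 0.103 are from the shallow libraries.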

How the data were processed

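Oocyte libraries were prepared by SMART-Seq2, 6 oocytes each, 15 libraries in 5 groups of 3, grouped by the titles in the sample labels. The authors trimmed reads, aligned them with HISAT2 to mm10 and assembled transcripts with StringTie, and deposited 1 table of raw counts per gene for each library. How counts were taken and the annotation release are not given in the sources used here. The combined table repeats the same values and was not used.

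Counts were tested with edgeR 4.0.16 (quasi-likelihood F test, TMM, filterByExpr with a minimum count of 10) in 1 fit of 5 group means, with Benjamini-Hochberg adjustment over 21009 genes, and with exact two-sided permutation tests on log2(normalized CPM + 1). DESeq2 1.42.0 was an alternative. Both kinds of test were tested on simulated data with known changes. The edgeR simulation gave all genes the same dispersion, had no library types and changed only abundant genes. It therefore does not cover members with few counts. Precision was limited by 3 libraries per group and by depth, 5954262 to 55593251 counts. There were no molecular identifiers. A fold against a group without counts divides the mean of the other group by a value for that group set at 3 counts in all. It bounds the ratio of these means only and takes no account of the spread between libraries.

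Members and gene lists were chosen with earlier results of these data known, as was the 5% limit between library types. Named were the 12 members with the highest mean level, carriers known from oocytes, DEGs and the 3 smallest P of each comparison, and at most 3 DEGs per other list and comparison. Members named outside these rules were chosen after their values were seen. Permutation within library types and leaving out the 2 shallow libraries together were added after seeing the data.

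Whether replicate numbers pair libraries was checked by correlating deviations from group means over genes. Correlations of same-numbered libraries were 0.37, 0.41 and 0.73 between the arms at day 10 and 0.23, 0.15 and 0.54 between days in IVG. These were taken as paired. Libraries of the same type with different numbers gave 0.37 and 0.27 between the arms at day 10. They gave 0.19 and 0.26 between days in IVG. Library type follows the replicate number in culture, so the check cannot tell pairing by number from library type. Same-numbered libraries gave 0.083, 0.107 and 0.328 between the arms at day 6 and 0.080, 0.066 and 0.260 between days in IVG-NT, taken as not paired. Replicates 1 and 2 of IVG-NT day 6 are shallow, so low correlations there cannot exclude pairing. The main fit had no block. The replicate block was 1 factor over all 15 libraries, so it also joined libraries taken as not paired. It put IVV replicate 3, rRNA-rich, with the rRNA-poor replicate 3 of each cultured group, where correlations ran from -0.52 to -0.33.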

Additional observations from a re-analysis of the deposited data

Results flagged for a closer look

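The NT-4 effect on Slc7a8 differed between days by -14.06 on the log2 scale (edgeR interaction test, adjusted p = 0.664). It stands out because the test of the difference between days passed its unadjusted threshold. Slc7a8 had 333 counts in IVG-NT day 6 replicate 1, no count in the other 5 day 6 libraries, 0, 415 and 120 counts in IVG day 10 and 28, 86 and 8 in IVG-NT day 10. Without IVG-NT day 6 replicate 1 the gene had no count at day 6.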

How the results depend on the processing

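Counts of DEGs among the members moved with the fit. In the order IVG day 10 against IVV, IVG-NT day 10 against IVV, NT-4 at day 10, NT-4 at day 6, days in IVG, days in IVG-NT, days over both arms and the NT-4 difference between days, they were 2, 3, 0, 3, 2, 6, 7 and 1. Without a filter on low counts, over 45 members, the first 3 were 4, 5 and 1 and the last was 2. Calls over all 36497 genes were 1637, 1580, 276 and 1810 there. With library type as a covariate the members' DEG counts were 1 for NT-4 at day 10 and 6 at day 6. They were 5 for days in IVG, 12 in IVG-NT and 2 for the difference. Calls over all genes rose too, to 427, 3312, 1022, 3555 and 1882. In the rRNA-rich libraries alone, 7 of 39 members were DEGs for NT-4 at day 6 and 3 for the difference. Calls over all 25589 genes were 4630 and 3021 there. Fitting the compared groups alone gave 4 members for IVG day 10 against IVV, where 970 of 18382 genes were DEGs. It gave 1 for NT-4 at day 6 (451 of 14756 genes). For days it gave 0 in IVG (416 of 16711 genes) and 1 in IVG-NT (706 of 15666 genes). DESeq2's Wald test gave 1 for NT-4 at day 10, 4 for days in IVG and 2 for the difference. Over all genes it gave 153, 592 and 1227 there. Without the 2 shallow libraries the count was 3 for days in IVG-NT (Slc38a5, Slc6a6 and Slc6a7, of which Slc6a6 was among the 6) and 0 for the difference. Day labels permuted within library types gave 6 members in place of 2. The causes were not tested.

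With an adjusted p under 0.05, DESeq2's Wald test called 1, 0, 1, 1, 2, 1, 4 and 1 members in the same order. Slc7a14, Slc7a8, Slc6a4, Slc38a3 and Slc6a14 were among them. At the same limit edgeR without the filter called 2 members for NT-4 at day 6, 1 for days in IVG-NT and 2 over both arms. Over all genes it called 881, 941 and 271 there. Leaving out 1 replicate at a time, DEG counts ran from 1 to 5, 1 to 5, 0 to 1, 2 to 6, 2 to 3, 2 to 9, 6 to 12 and 0 to 3, and adjusted calls from 0 to 2 for NT-4 at day 6, 0 to 1 for days in IVG-NT and 0 to 2 over both arms, and were 0 elsewhere. The adjusted calls came without IVG-NT day 6 replicate 3, where 2411, 2549 and 1503 of all genes were called in these 3 comparisons.

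Slc6a4 turned without the 2 shallow libraries, to 1.21 between days in IVG-NT and 0.20 over both arms. The interaction of Slc38a5 ran from -12.29 to 5.59 on leaving out 1 replicate at a time, the last without IVG-NT day 6 replicate 1, and turned to 5.66 without both shallow libraries. With the replicate block the counts were 3, 4, 0, 3, 4, 4, 6 and 1. Over all genes they were 534, 556, 127, 1138, 360, 1309, 1313 and 703.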
